A study of Mus musculus with 4 samples.

Results

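Somatostatin nuclei were 223 of the 38868 nuclei that met the limits on genes and mitochondrial counts in 4 single-nucleus libraries of the mouse posterior substantia innominata, a basal forebrain region below the striatum. A nucleus was counted as one when it held at least 3 molecules (UMIs, unique molecular identifiers) of Sst, at least 1 of Gad1 and Gad2 together, none of Slc17a6 or Slc17a7, and at least 2 of the neuronal genes Syt1, Snap25 and Rbfox3. These 8 genes chose the nuclei, so their levels are a description, and they were left out of every test. The comparison class was 16376 other GABA nuclei with at least 2 Gad1 and Gad2 UMIs, taken from the same 4 libraries. All mice were wild type and 8 weeks old. The tissue was microdissected, 2 of the libraries were from male mice and 2 from female mice, and the study set out to measure how the neurons of this region differ between the sexes. Whether both libraries of a sex were made from different animals is not in the labels. The p-values below therefore cover the variation among these 4 samples alone, and that variation may be technical.

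Somatostatin is a small inhibitory peptide that is cut from a larger precursor, packed into dense-core vesicles and released by many GABAergic neurons. In cortex, hippocampus and striatum, interneurons that make it are born in the medial ganglionic eminence (MGE) and are specified by the transcription factors Nkx2-1, Lhx6, Satb1 and Sox6. Those interneurons inhibit dendrites, and a long-range type among them also makes neuropeptide Y and nitric oxide. In the central amygdala and its extension towards the substantia innominata, other somatostatin neurons carry genes of the lateral ganglionic eminence (LGE) such as Meis2 and act in feeding, defence and reward. Both kinds could be present in a dissection of this region.

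Somatostatin nuclei were found in all 4 libraries but in very unequal numbers. The males gave 78 (male 1) and 58 (male 2), and the females 7 (female 1) and 80 (female 2). Female 1 stood apart, and its 7 nuclei gave a sum of only 44208 UMIs, against 1447890, 1024587 and 644668 in male 1, male 2 and female 2. A gene at 0 in the Sst nuclei of female 1 could by counting error stand at up to 53.8 CPM there (3 UMIs; CPM is defined below), and results are given without that library where it matters. Median UMIs per Sst nucleus were 15297, 12927, 5589 and 5943 in male 1, male 2, female 1 and female 2, and those of other GABA nuclei were 13362, 12984, 6084 and 6502. Sex changed together with sequencing depth (144035342 to 158132452 UMIs per male library and 53098268 to 53679351 per female library), with barcode set, software version and gene list, so these cannot be told apart.

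Sst itself was far above the other GABA nuclei in every library. Per 1e+06 UMIs of the summed nuclei, unscaled, there were 226, 216, 641 and 570.3 of Sst in the Sst nuclei of male 1, male 2, female 1 and female 2. Other GABA nuclei held 11.1, 11.2, 6.79 and 26.2 in the same order. Nuclei gated as oligodendrocytes, which should not make somatostatin, held 34.5, 23.4, 13.9 and 83.6, more than the other GABA nuclei in each library. Sst RNA was therefore also counted in nuclei of another class, at a level that was highest in female 2. The higher level in the female Sst nuclei goes with their lower depth, at which 3 UMIs are a larger part of a nucleus.

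The threshold of 3 UMIs did not fall in a gap. Among nuclei that met all other gates, 17279 held no Sst UMI, 2043 held 1, 363 held 2, 118 held 3, 49 held 4 and 22 held 5. Of the 223 Sst nuclei, 118 (52.9%) held exactly 3, 56 held 5 or more and 5 held 10 or more. The highest count, 32, was in female 2. Of 2446 oligodendrocyte-gated nuclei, 181 (7.40%) held at least 1 Sst UMI, 12 held at least 2 and 1 held at least 3, at a median of 1755 UMIs per nucleus against 11401 in the Sst nuclei. Single Sst UMIs thus occurred outside neurons, whereas 3 or more were rare there at their lower depth. The level and distribution by library are shown in the plot of Sst by class.

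**Figure D1:**
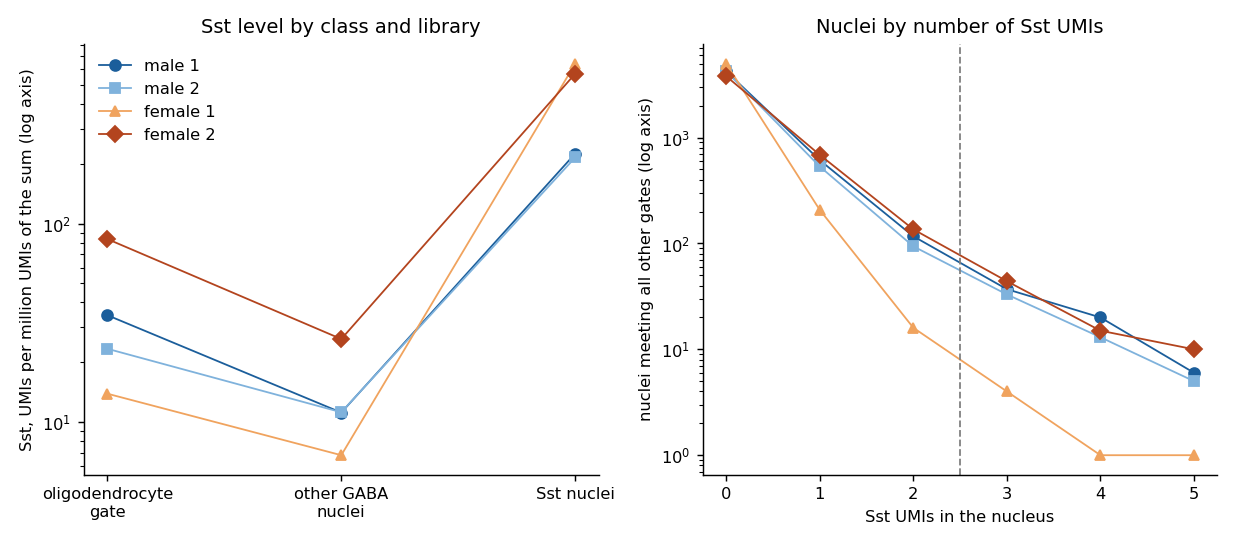
Left, Sst per 1e+06 UMIs of the summed nuclei (log axis) for oligodendrocyte-gated nuclei, other GABA nuclei and Sst nuclei, 1 line per library. Right, number of nuclei meeting all other gates (log axis) by Sst UMIs, with the threshold as a dashed line; counts fall without a gap from 17279 nuclei at 0 to 22 at 5, and female 1 lies lowest from 1 UMI on.

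The nuclei were also checked for mixing with other cells. Doublet scores in the top 0.8% per 1000 barcodes marked 12, 7, 1 and 13 of the Sst nuclei (15.4%, 12.1%, 14.3% and 16.3%) in male 1, male 2, female 1 and female 2, against 9.47%, 9.09%, 13.6% and 11.97% of other GABA nuclei. Subcluster 0, described further on, held 20 Sst nuclei led by the myelin genes Mobp and Mbp and the oligodendrocyte gene St18, and 12 of those 20 had high doublet scores. It is given with its own values and left out in an alternative of each comparison. Of 23 barcodes shared by the male libraries and 35 shared by the female libraries, none was an Sst nucleus.

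The share of nuclei with the Sst gate did not differ between the sexes beyond the spread of the libraries. In the males it was 0.883% (male 1; exact Clopper-Pearson 95% interval 0.699 to 1.10) and 0.676% (male 2; 0.514 to 0.873). The females gave 0.0643% (female 1; 0.0259 to 0.133) and 0.756% (female 2; 0.600 to 0.940). These intervals cover counting error only. The male mean exceeded the female mean by 0.370 percentage points (exact two-sided permutation test over libraries, p = 0.667; with 2 against 2 it cannot go below 0.333). Without female 1 the difference was 0.0238 points. With every nucleus thinned to 2000 UMIs, only 0, 2, 0 and 11 nuclei reached 3 Sst UMIs and the difference was -0.0592 points (exact permutation p = 1), so the order of the sex means changed.

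To determine which genes separated Sst nuclei from other GABA nuclei, UMIs were summed per library and class and compared within library. Of 15635 genes tested, 521 (3.33%) differed at an adjusted p under 0.05 with edgeR's quasi-likelihood test, 255 (1.63%) higher and 266 (1.7%) lower in Sst nuclei. The genes higher in Sst nuclei included the peptide Npy, the receptors Vipr2, Pth2r and Drd3, the enzyme Moxd1 and the transcription factors Tox, Tox3 and Sox6. The genes lower included Foxp2, Ldb2, Adarb2 and Chst9. The median log2 fold of all genes was -0.04. A difference between sums can come from more nuclei with a gene or from more UMIs per nucleus.

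The number of calls rested mainly on the 2 deep male libraries. It was 651 in males alone and 29 in females alone, 197 without male 1, 239 without male 2, 134 with DESeq2 (0.857%; 77 higher, 0.492%, and 57 lower, 0.365%) and 12 when the library term was left out. All 134 DESeq2 calls were among the 521, with the same direction. Of the 521 calls, 438 were shared with males alone and 26 with females alone, and 485 of 519 fitted kept their direction in females alone. Among genes described below, the calls of Pdyn (log2 fold 1.05), Lhx6 (0.82), Satb1 (0.61), Pcsk1 (0.81), Cyp19a1 (-3.34) and Qrfpr (-0.94) were lost without male 1, and those of Maf (0.80), Oprm1 (-0.50) and Crhr1 (-1.01) without male 2. Esr1, Prox1, Cacna2d2, Grik3 and Grik4 lost theirs when either male was left out. Values with a library left out are not given for some other genes, for example Nppc, Nkx2-1, Lhx8, Npas1, Crhr2, Oprd1, Tacr3 and Drd2.

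Npy, which encodes neuropeptide Y, had the largest fold of the genes named by the rule for called genes with at least 50 UMIs in Sst nuclei. Its level in Sst nuclei was 24.96, 28.5, 17.9 and 94.4 CPM (counts per 1e+06, scaled by the TMM method) in male 1, male 2, female 1 and female 2, against 2.48, 3.15, 2.08 and 4.42 in other GABA nuclei. Every library of Sst nuclei lay above every library of the other class, and female 2 was highest. The log2 fold was 3.66 ± 0.26 (SE, edgeR adjusted p = 2.31e-41). After thinning to 2000 UMIs, Npy was detected in 8.56% of 222 Sst nuclei, 0.677% of 16240 other GABA nuclei and 0.804% of 871 oligodendrocyte-gated nuclei. Unthinned, the shares were 23.3%, 2.81% and 1.55%. In female 1, 1 UMI in the Sst nuclei is 17.9 CPM, so Npy rested on 1 UMI there. Of all genes tested, 3.77% were higher and 15.6% lower in Sst nuclei of all 4 libraries. The share with no overlap between the classes, as given for Npy and for genes below, was not counted.

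Of 36 neuropeptide genes listed, 25 passed the filter on low counts, and 5 of these were higher and 0 lower in Sst nuclei, with a median log2 fold of 0.24. For this and each later list of this comparison, the shares over all genes tested were 1.63% higher and 1.7% lower. The part of expression level in the calls of a list was not tested. Pdyn, the precursor of the opioid peptide dynorphin, stood at 36.7, 18.3, 17.9 and 3.09 CPM in Sst nuclei of male 1, male 2, female 1 and female 2 and at 6.197, 5.76, 8.95 and 5.45 in other GABA nuclei (log2 fold 1.82 ± 0.27, adjusted p = 2.27e-09). It was lower than in the other class in female 2, and in females alone the log2 fold was -0.43. Nts, which encodes neurotensin, stood at 34.5, 33.6, 53.8 and 23.2 CPM against 12.7, 11.3, 6.45 and 18.6, and all 4 libraries of Sst nuclei exceeded all 4 of the others (log2 fold 1.27 ± 0.21, adjusted p = 3.44e-07). The other 2 were Vgf, a granin of dense-core vesicles (log2 fold 0.94 ± 0.17), and Nppc, a natriuretic peptide precursor seen at 1.47, 7.12, 0 and 3.09 CPM in Sst nuclei (log2 fold 2.41 ± 0.56, adjusted p = 0.00135). There 1 UMI is 0.734, 1.02, 17.9 and 1.55 CPM, so the call of Nppc rests on few UMIs. Penk, the enkephalin precursor, stood at 46.2, 91.6, 17.9 and 61.9 CPM against 83.6, 93.5, 32.4 and 81.4 and did not pass the test (log2 fold -0.42 ± 0.13, adjusted p = 0.0525). The related peptide Cort was listed with 2, 1, 0 and 0 UMIs in the Sst nuclei of the 4 libraries and was not tested. Vip had 0, 0, 0 and 1 UMIs and Pvalb, a marker of another interneuron class, 2, 0, 0 and 0.

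Pam, Pcsk1 and Pcsk2, enzymes that cut and finish peptides, were higher in Sst nuclei. Of 11 genes of peptide processing and release tested, 3 were higher, 1 was lower and the median log2 fold was 0.11. Pam, which amidates peptide ends, stood at 755, 739.7, 412 and 634 CPM against 402, 407, 383 and 289.8, above the other class in all 4 libraries (log2 fold 0.89 ± 0.10, adjusted p = 3.47e-17). The prohormone convertases Pcsk2 (log2 fold 0.65 ± 0.10, adjusted p = 1.19e-08) and Pcsk1 (log2 fold 0.93 ± 0.17, adjusted p = 5.24e-06) were also higher, and Pcsk1 stood at 51.4, 46.8, 143 and 21.7 CPM against 24.4, 23.999, 21.1 and 22.4, close to the other class in female 2. Cadps2, a priming factor of dense-core vesicles, was lower, at 129, 134, 0 and 309 CPM against 337, 345, 313 and 339 (log2 fold -1.01 ± 0.11, adjusted p = 3.47e-17). Its value in female 2 lay near the other class, and it was at 0 in female 1. The carboxypeptidase Cpe, which trims peptide ends, did not pass the test (log2 fold -0.09 ± 0.11, adjusted p = 0.878).

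The promoters of Sst and Pcsk1 both hold the palindromic cAMP response element, TGACGTCA, and are shown because the convertase acts on peptide precursors of this kind and was called higher; both were chosen after the values had been seen. The 120 bases upstream of each start are from RefSeq (GRCm38.p6), with the element in capitals. They lie at chr16:23890845-23890964 on the minus strand for Sst and chr13:75089737-75089856 on the plus strand for Pcsk1.
Sst: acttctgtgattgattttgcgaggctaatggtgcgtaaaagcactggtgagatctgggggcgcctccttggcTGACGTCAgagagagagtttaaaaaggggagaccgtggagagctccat
Pcsk1: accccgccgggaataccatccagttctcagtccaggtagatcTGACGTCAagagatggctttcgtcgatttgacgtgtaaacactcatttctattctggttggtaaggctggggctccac
The element begins 48 bases before the start of Sst and 78 bases before that of Pcsk1. In windows from 250 bases before to 50 after the start, it was found in 4 of 179 promoters of genes higher in Sst nuclei (2.23%: Btg2, Pcsk1, Slc18a2 and Zdbf2) and in 2 of 195 of genes lower (1.03%: Pax6 and Uncx). It was found in 393 of 11554 promoters of genes tested (3.40%) and in 549 of all 27025 (2.03%), so the share among the genes higher in Sst nuclei was not above that of the genes tested. The element reads the same on both strands, and a match is a description, not a site in use.

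Transcription factors of the MGE were partly higher and partly lower. Of 13 MGE genes, all tested, 5 were higher and 4 lower (median log2 fold 0.33). Sox6, which acts in maturing MGE interneurons, stood at 606, 602, 788 and 512 CPM in Sst nuclei of male 1, male 2, female 1 and female 2, against 272, 253, 286 and 184 (log2 fold 1.31 ± 0.10, adjusted p = 6.41e-38). The classes did not overlap, and the level was more than 2-fold above the other class in each library. Lhx6, the MGE factor that acts after Nkx2-1, stood at 46.98, 23.4, 0 and 27.9 CPM against 15.4, 14.2, 10.1 and 13.2 (log2 fold 1.20 ± 0.20, adjusted p = 7.32e-07). It was higher in 3 libraries and at 0 in female 1. Satb1, needed for the maturation of somatostatin interneurons, had a log2 fold of 0.91 ± 0.13 and was level with the other class in female 2, Maf one of 1.00 ± 0.19, and Nkx2-1, seen at 8.81, 9.16, 0 and 3.09 CPM, one of 1.59 ± 0.41.

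The 4 MGE genes that were lower included factors of other MGE derivatives. Lhx8, a factor of cholinergic neurons, stood at 2.94, 6.105, 0 and 3.09 CPM against 11.8, 12.01, 13.2 and 18.4, below the other class in all 4 libraries (log2 fold -1.75 ± 0.38, adjusted p = 0.000366). Npas1, a factor of pallidal neurons, stood at 2.202, 1.02, 0 and 9.28 CPM against 7.53, 7.77, 14.6 and 18.6 (log2 fold -1.63 ± 0.42). Etv1 and Mef2c had log2 folds of -0.77 ± 0.20 and -0.61 ± 0.12. Erbb4, a neuregulin receptor of many interneurons, did not pass the test (log2 fold 0.25 ± 0.10, adjusted p = 0.165). Tox and Tox3, related HMG-box factors in no list, were called in the same direction. Tox stood at 694, 590.1, 538 and 421 CPM against 192, 205, 202 and 142 and was above the other class in each library (log2 fold 1.63 ± 0.10, adjusted p = 9.17e-58), and Tox3 had a log2 fold of 1.57 ± 0.11.

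Genes known from somatostatin interneurons of cortex and striatum were higher more often than lower. Of 23 listed, 20 were tested, 10 were higher and 0 lower, with a median log2 fold of 0.53. Nos1, the neuronal nitric oxide synthase, stood at 80.8, 52.9, 35.8 and 83.6 CPM against 29.6, 29.2, 28.3 and 31.2 with no overlap (log2 fold 1.25 ± 0.14, adjusted p = 1.06e-15). Unthinned, a Nos1 UMI was found in 20.5% and 20.7% of Sst nuclei in male 1 and male 2, against 23.3% and 22.7% of other GABA nuclei. In female 1 and female 2 it was found in 28.6% and 21.25%, against 12.5% and 13.8%. After the thinning described for Npy, it was detected in 9.01% of Sst nuclei and 4.77% of other GABA nuclei. The thinned share was higher in Sst nuclei of male 1, male 2 and female 2, and was 0% of 7 nuclei in female 1. In male 1, 1 nucleus held 29 of the 110 Nos1 UMIs. Tacr1, the substance P receptor of the long-range type, stood at 101, 69.2, 35.8 and 80.5 CPM against 49.8, 50.98, 37.03 and 32.5 (log2 fold 0.88 ± 0.13), and in female 1 it was below the other class. Moxd1, a monooxygenase-like gene, stood at 88.1, 67.2, 35.8 and 41.8 CPM against 22.9, 22.7, 11.9 and 9.58, above the other class in each library (log2 fold 1.83 ± 0.16, adjusted p = 1.14e-27). Nxph1, a neurexin ligand, stood at 1186, 923, 573 and 548 CPM against 534, 498, 519.9 and 302 (log2 fold 0.89 ± 0.10, adjusted p = 5.77e-17).

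The other genes called in that list were Nxph2 (log2 fold 0.97 ± 0.17), Rab3b (1.12 ± 0.18), the urocortin receptor Crhr2 (1.58 ± 0.31), Unc13c (0.68 ± 0.10), the NMDA receptor subunit Grin3a (0.37 ± 0.10) and Pdyn. Chodl, the lectin-like gene that marks the long-range type, had 17, 13, 0 and 6 UMIs in the Sst nuclei of the 4 libraries, or 12.5, 13.2, 0 and 9.28 CPM against 6.56, 6.48, 2.25 and 3.72, and did not pass the test. Reln, an extracellular glycoprotein of many interneurons, did not pass it either (log2 fold 0.22 ± 0.12, adjusted p = 0.489).

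**Figure D2:**
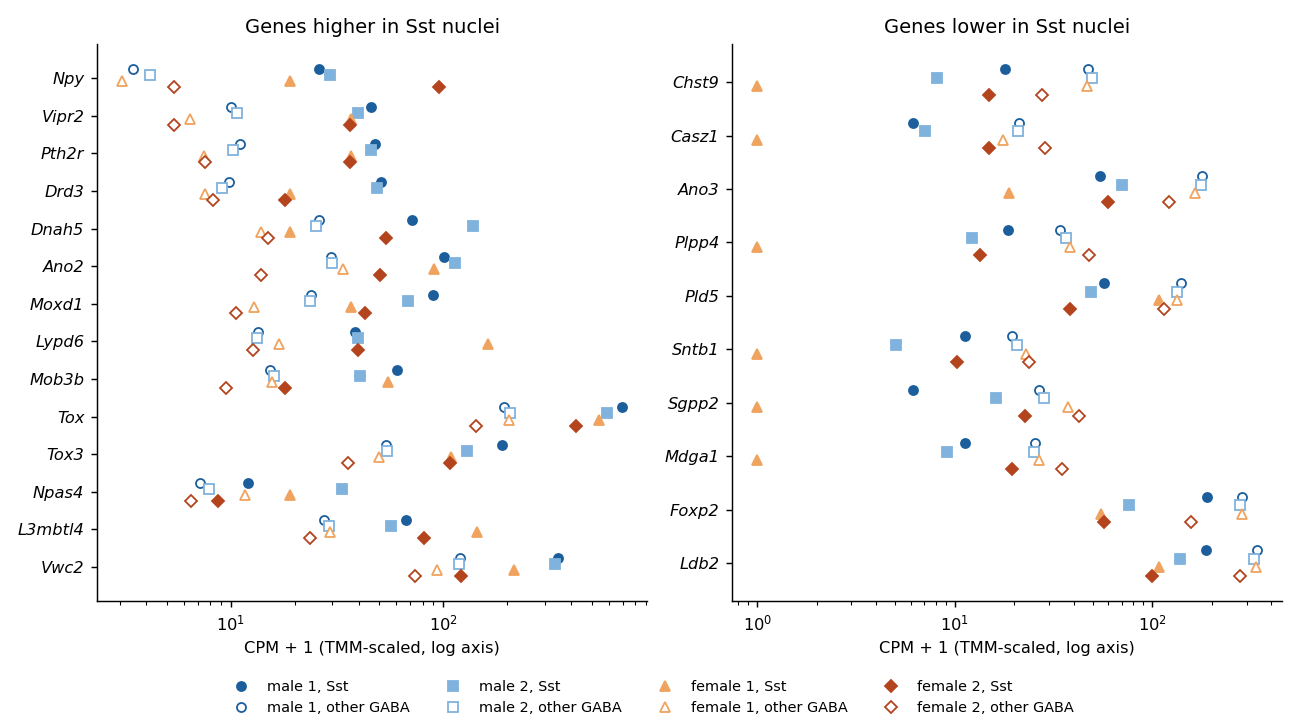
Level of the 14 genes with the highest and the 10 with the lowest log2 fold by the naming rule, as CPM + 1 (TMM-scaled, log axes); filled symbols are Sst nuclei and open symbols other GABA nuclei of the same library. By the rule all 14 lie above and all 10 below the other class in each of the 4 libraries (3.77% and 15.6% of all genes tested did so), and 6 of the 10 lower genes are at 0 in female 1.

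Genes of LGE neurons, of the caudal eminence and of striatal projection neurons were lower more often than higher. Of 27 tested, 2 were higher and 6 lower (median log2 fold -0.37). Foxp2, a forkhead factor of striatal and intercalated neurons, stood at 189, 75.3, 53.8 and 55.7 CPM against 284, 275, 285 and 156, below the other class in all 4 libraries (log2 fold -1.21 ± 0.12, adjusted p = 1.52e-20). Adarb2, an RNA editing factor that marks interneurons of the caudal eminence, stood at 787, 754, 609 and 817 CPM against 1795, 1757, 1499 and 1397, with no overlap (log2 fold -1.09 ± 0.10, adjusted p = 5.16e-24). Tshz1, a factor of intercalated neurons, had a log2 fold of -1.06 ± 0.19 and Drd2, the D2 dopamine receptor, one of -0.97 ± 0.29. Meis2, the LGE factor, was not called, at 886, 757, 735 and 576 CPM against 764, 741, 925 and 533 (log2 fold 0.07 ± 0.10, adjusted p = 0.91). Pde10a, the phosphodiesterase of striatal projection neurons, was higher at 973, 872, 1398 and 766 CPM against 747, 703, 890.5 and 706 (log2 fold 0.33 ± 0.10, adjusted p = 0.0232), as was Prox1 (log2 fold 0.73 ± 0.19).

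Genes of the central extended amygdala were called in both directions, and 2 cholinergic genes were lower. Of 22 extended amygdala genes, 3 were higher (Htr2c, Nts and Pdyn) and 2 lower (Glra3 and Calcrl), with a median log2 fold of 0.07. Htr2c, the serotonin 2C receptor, stood at 1215, 1127, 860.0 and 777 CPM against 622, 607, 571 and 465, above the other class in each library (log2 fold 0.84 ± 0.10, adjusted p = 2.44e-15). Of 17 hypothalamic transcription factor genes, 8 were tested, 0 were higher and 1 was lower. That gene was Sim1, with no UMI in the Sst nuclei and 4.71, 4.68, 3.87 and 2.17 CPM in other GABA nuclei, at least 4.31-fold lower if 3 UMIs are set over all Sst nuclei together. Chat, which makes acetylcholine, stood at 1.47, 7.12, 0 and 1.55 CPM against 9.38, 9.75, 13.5 and 18.8 (log2 fold -1.81 ± 0.41, adjusted p = 0.000808), and the choline transporter Slc5a7 had a log2 fold of -2.63 ± 0.52. Both rest on few UMIs. Without male 2 their log2 folds were -3.10 and -4.43, and without male 1 they were -1.49 and -1.91 and neither passed the test. Chat also lost its call without female 2 (log2 fold -1.34). In the same list of 6 tested genes the vesicular monoamine transporter Slc18a2 was higher (log2 fold 1.08 ± 0.27), but with at least 5 Sst UMIs required its log2 fold was -1.74. Without male 1 neither Sim1 nor Slc18a2 passed the test.

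Receptors divided in both directions. Of 26 neuropeptide receptors tested, 1 was higher and 5 lower, with a median log2 fold of -0.45, and of 21 monoamine and acetylcholine receptors 2 were higher and 2 lower (median 0.02). Vipr2, which binds VIP and PACAP, stood at 44.8, 38.7, 35.8 and 35.6 CPM against 9.01, 9.704, 5.45 and 4.38 with no overlap (log2 fold 2.37 ± 0.22, adjusted p = 1.25e-23). With at least 5 Sst UMIs required, which kept 56 nuclei, its log2 fold was -0.19. In female 1 Vipr2 rested on 2 UMIs in 1 nucleus. Drd3, the D3 dopamine receptor, stood at 49.9, 47.8, 17.9 and 17.02 CPM against 8.85, 8.098, 6.57 and 7.26, above the other class in each library and higher in both males than in both females (log2 fold 2.27 ± 0.22, adjusted p = 2.46e-22). Pth2r, the receptor of the peptide TIP39 and in no list, stood at 46.98, 44.8, 35.8 and 35.6 CPM against 10.05, 9.24, 6.49 and 6.59 (log2 fold 2.30 ± 0.21, adjusted p = 2.20e-24).

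Among the receptors that were lower, the serotonin receptor Htr1f stood at 66.1, 96.7, 89.6 and 119 CPM against 212, 216, 181 and 166 with no overlap (log2 fold -1.15 ± 0.12, adjusted p = 1.43e-17). The mu opioid receptor Oprm1 stood at 91.03, 57.99, 0 and 74.3 CPM against 111, 111, 129 and 112 (log2 fold -0.61 ± 0.13, adjusted p = 0.000164). The receptors Crhr1 for CRH and Qrfpr for the peptide QRFP had log2 folds of -1.12 ± 0.26 and -1.11 ± 0.24, and Oprd1 and Tacr3 had -0.99 ± 0.29 and -0.83 ± 0.25. No somatostatin or NPY receptor was called among the 6 tested. Sstr2, the main postsynaptic somatostatin receptor, stood at 5.14, 2.03, 17.9 and 10.8 CPM against 4.79, 5.55, 7.74 and 8.14, and Npy1r at 3.67, 5.09, 0 and 9.28 against 6.02, 6.76, 8.65 and 8.88.

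The sex steroid genes that were called were lower in Sst nuclei. Of 10 tested, 0 were higher and 3 lower (median log2 fold -0.09). Cyp19a1, the aromatase that makes estradiol, stood at 0, 1.02, 0 and 0 CPM against 7.995, 7.65, 1.46 and 3.905, a single UMI in all Sst nuclei (log2 fold -4.37 ± 0.85, adjusted p = 2.62e-05). The estrogen receptor Esr1 stood at 14.7, 10.2, 0 and 29.4 CPM against 28.96, 27.6, 25.9 and 30.6 (log2 fold -0.84 ± 0.22, adjusted p = 0.0071), and female 2 was close to the other class.

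Channel genes were called in both directions. Of 30 potassium channel genes, 3 were higher and 5 lower (median log2 fold -0.18), beside 1.63% and 1.7% of all genes tested. Kcnmb2, a subunit of BK channels, stood at 159, 228, 143 and 135 CPM against 77.1, 77.4, 96.8 and 84.7 with no overlap (log2 fold 1.11 ± 0.11, adjusted p = 1.95e-21). Kcnc2, a fast delayed-rectifier channel of interneurons, stood at 959, 1057, 555 and 605 CPM against 488, 489, 488 and 489 (log2 fold 0.76 ± 0.10, adjusted p = 3.83e-12), and the excess was larger in both males than in either female. Of 28 sodium, calcium, HCN and TRP channel genes, 2 were higher, Trpc5 (log2 fold 0.94 ± 0.10) and Trpc6 (1.32 ± 0.18), and 1 lower, Cacna2d2 (-0.50 ± 0.12).

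GABA and glutamate receptor genes were mostly not called. Of 22 GABA genes, 1 was higher and 4 lower (median log2 fold -0.16). The vesicular GABA transporter Slc32a1 stood at 41.1, 50.9, 0 and 78.9 CPM against 40.9, 43.4, 15.1 and 55.6 and was not called. Of 23 glutamate receptor genes, 0 were higher and 3 lower, Grm3 (-0.61 ± 0.12), Grik4 (-0.46 ± 0.11) and Grik3 (-0.45 ± 0.12), with a median of -0.08. Of 49 adhesion and guidance genes, 6 were higher and 7 lower (median -0.14). Cntnap4, a contactin-associated protein of interneuron synapses, had a log2 fold of 0.74 ± 0.10 and the secreted guidance cue Sema3a one of 0.85 ± 0.11, whereas the netrin-G ligand Lrrc4c had -0.74 ± 0.10 and the cadherin Cdh18 -0.81 ± 0.10. No calcium-binding protein was called among 11 tested, and Calb1 stood at 70.5, 87.5, 17.9 and 35.6 CPM against 59.5, 59.3, 52.01 and 42.9.

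Immediate early genes, which neurons induce within minutes of activity, were higher in Sst nuclei where they were called. Of 15 tested, 6 were higher and 0 lower (median log2 fold 0.60). Fos stood at 14.7, 42.7, 0 and 15.5 CPM against 8.28, 8.62, 4.702 and 4.71, highest in male 2 and at 0 in female 1 (log2 fold 1.64 ± 0.26, adjusted p = 4.60e-08). Fosb stood at 0.734, 33.6, 0 and 1.55 CPM against 2.41, 3.14, 1.33 and 1.58 (log2 fold 2.00 ± 0.38), and without male 2 its log2 fold was -1.13. Npas4 stood at 11.01, 32.6, 17.9 and 7.74 CPM against 6.21, 6.901, 10.7 and 5.49 (log2 fold 1.41 ± 0.28), and without male 2 it no longer passed the test (log2 fold 0.72). Fos (log2 fold 1.08) and Junb (0.59) lost their calls without male 2 as well, so these calls rested on that library.

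**Figure D3:**
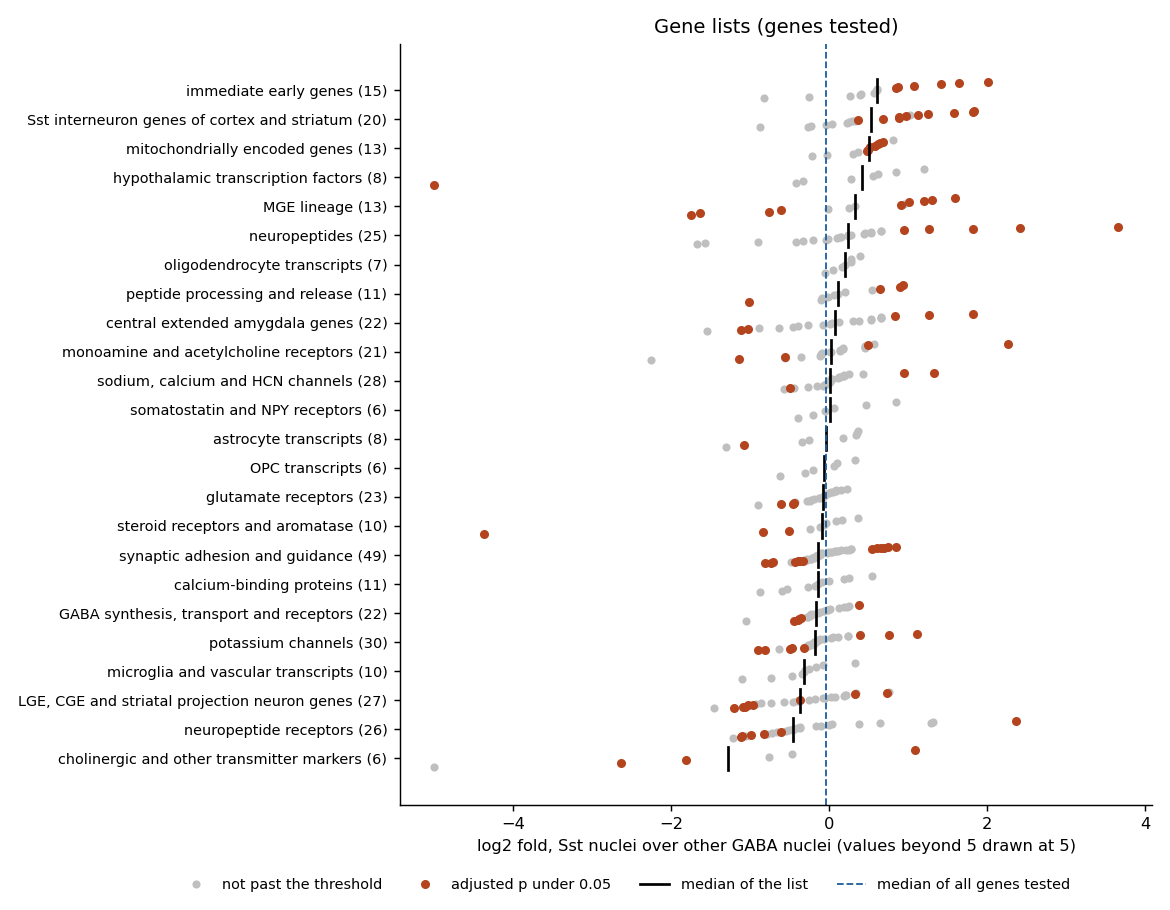
Log2 fold of Sst nuclei over other GABA nuclei for each tested gene of the 24 lists (1 point per gene, number tested in brackets), with the list median as a black bar and the median of all tested genes (-0.04) as a dashed line. The lists of immediate early genes and Sst interneuron genes have the highest medians (0.60 and 0.53) and the cholinergic list the lowest (-1.28); the 2 points drawn at -5, Sim1 among them, have fitted folds beyond it that rest on counts at or near 0.

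Mitochondrial transcripts are made outside the nucleus and glial transcripts in other cells, so both were measured beside the neuronal genes. Of 13 mitochondrially encoded genes, 7 were higher and 0 lower (median log2 fold 0.50), and their summed level was 672, 908, 1362 and 2595 CPM in Sst nuclei of male 1, male 2, female 1 and female 2, against 341, 377, 436 and 3239. In female 2 it was lower in Sst nuclei than in the others, and the part of these transcripts in the other results was not tested. Without male 2 the calls of mt-Co1, mt-Co3, mt-Nd1 and mt-Nd4 were lost (log2 folds 0.31, 0.32, 0.34 and 0.53). Those of mt-Co3, mt-Nd1 and mt-Nd4 were also lost without male 1 (0.39, 0.53 and 0.50), and that of mt-Nd1 without female 1 (0.48). Of 7 oligodendrocyte genes, 0 were called, and their summed level was 501, 404, 108 and 802 CPM against 423, 441, 778 and 580 (median log2 fold 0.19). Of 8 astrocyte genes tested, 1, Gpc5, was lower (log2 fold -1.08 ± 0.10), and 0 of 6 OPC and 0 of 10 microglial and vascular genes were called.

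Without subcluster 0, the class comparison gave 577 calls (256 higher and 321 lower), of which 431 were shared with the 521, 429 of them with the same direction. The other 2 were Trf, which encodes transferrin (log2 fold 0.44 with that subcluster and -0.69 without it), and the noncoding RNA Neat1 (0.78 and -0.70). The myelin gene Mbp then had a log2 fold of -0.99 in place of 0.16. Of the 82 called genes named by the rule, 78 kept their call without that subcluster, and all 82 kept it when the other GABA nuclei were held to 0 Sst UMIs.

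To describe how Sst nuclei differed among themselves, the 223 were clustered on their variable genes into 12 subclusters of 9 to 25 nuclei. The genes that define a subcluster were used to form it, so their values are a description without a test, and no subcluster is given a cell type name. Leading genes were ranked by summed level against the other Sst nuclei, among genes with a UMI in at least 20% of the nuclei. A leading gene can therefore rest on a minority of the nuclei. They fell broadly into nuclei with Sox6 and nuclei with Meis2. Sox6 had a UMI in every nucleus of subclusters 3, 4, 9 and 11, which held 74 of the 223 nuclei, or 33.3% and 43.1% of those in male 1 and male 2 and 42.9% and 25% of those in female 1 and female 2. Subclusters 2, 5, 6, 7, 8 and 10 held Meis2 at 1660.1, 1237, 782, 1180.5, 756 and 1444 UMIs per 1e+06, against 389, 185 and 12.4 in subclusters 3, 4 and 9 and 0 in 11. Subcluster 1 was low in both genes, with Meis2 at 26.6 and Sox6 at 207 UMIs per 1e+06. Clustering divides any set of nuclei, so the subclusters alone do not show that the nuclei are of separate types.

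Within the Sox6 nuclei, peptides and receptors differed by subcluster. Subcluster 4, with 22 nuclei, was led by the nuclear factor Nfib, Moxd1, the matrix protein Spon1 and Crhr2, with Npy in 68.2% of nuclei and Pth2r in 68.2%. Subcluster 9, with 18 nuclei, was led by the mechanosensitive channel Piezo2, Trpc6, Pth2r and L3mbtl4, with Pth2r at 254 UMIs per 1e+06 and Npy in 44.4% of nuclei. Piezo2 had a UMI in only 22.2% of these nuclei, and Trpc6, Pth2r and L3mbtl4 in 50%, 66.7% and 94.4%. Subcluster 3, with 25 nuclei, was led by the collagen Col11a1, Nos1, the retinoic acid receptor Rarb and Lhx6, with Nos1 in 48% of nuclei, Npy in 56% and Tacr1 in 56%. Npy, Nos1, Tacr1 and Chodl, the genes of the long-range type, were thus spread over these 3 subclusters and did not mark 1 of them. Nos1 and Tacr1 were not confined to these. Nos1 was in 38.5%, 20% and 25% of nuclei of subclusters 5, 6 and 8, against 16.7% of subcluster 9, and in none of subclusters 1, 7, 10 and 11. Tacr1 was in 33.3% of subcluster 8 and in none of subcluster 11. Subcluster 0, led by oligodendrocyte genes, held Nos1, Tacr1, Npy and Chodl in 45%, 55%, 45% and 25% of its nuclei. Subcluster 11, with 9 nuclei, was led by the ALK ligand Alkal2, the CRH binding protein Crhbp, the potassium channel Kcns3 and Maf, with Npy in 11.1%. Subcluster 1, with 15 nuclei, was led by the cadherin Cdh9, Mpped2 and Maf, had Lhx6 in 60% of nuclei and Sox6 in 46.7%.

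Within the Meis2 nuclei other peptides led. Subcluster 2, with 22 nuclei, was led by Vipr2, the axonemal dynein Dnah5 and Mob3b, with Drd3 in 72.7% of nuclei, Pdyn in 68.2%, Nts in 63.6% and Tac2, which encodes neurokinin B, in 72.7%. Subcluster 10, with 19 nuclei, was led by Ebf1, a factor of striatonigral neurons, and Lnx2, with Drd3 in 57.9% and Vipr2 in 10.5%. Both therefore had Drd3, and Vipr2 was mostly in subcluster 2. Subcluster 5, with 13 nuclei, was led by Tac1, the substance P precursor, found in 84.6% of nuclei, with Isl1, a factor of striatonigral neurons, in 53.8%. Subcluster 6, with 25 nuclei, was led by Zbtb7c, Cdh12 and Piezo2 (in 60%, 68% and 36% of nuclei), with the prolactin receptor Prlr among its 10 leading genes and Foxp2 in 36%. Subcluster 8, with 24 nuclei of which 17 came from female 2, was led by the nuclease Dnase1l3, the glypican Gpc5 and Pax6. These had a UMI in 33.3%, 50% and 25% of its nuclei. Subcluster 7, with 11 nuclei, was led by Greb1, which had a UMI in 27.3% of them.

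Subcluster 0 held 20 nuclei, 10, 5, 0 and 5 from male 1, male 2, female 1 and female 2. The summed level of oligodendrocyte genes was 1574 UMIs per 1e+06 in it and 30.3 to 273 in the other 11. It had Sox6 at 830.1 and Meis2 at 492 UMIs per 1e+06, so it carried genes of both kinds beside the myelin genes. At a resolution of 0.5 the nuclei gave 7 clusters and at 1.5 they gave 14, and 11 of the 12 subclusters stayed whole at 0.5 whereas 72% of subcluster 3 did. At 1.5, subclusters 3, 6 and 8 were split, with 68%, 88% and 70.8% of their nuclei kept together.

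**Figure D4:**
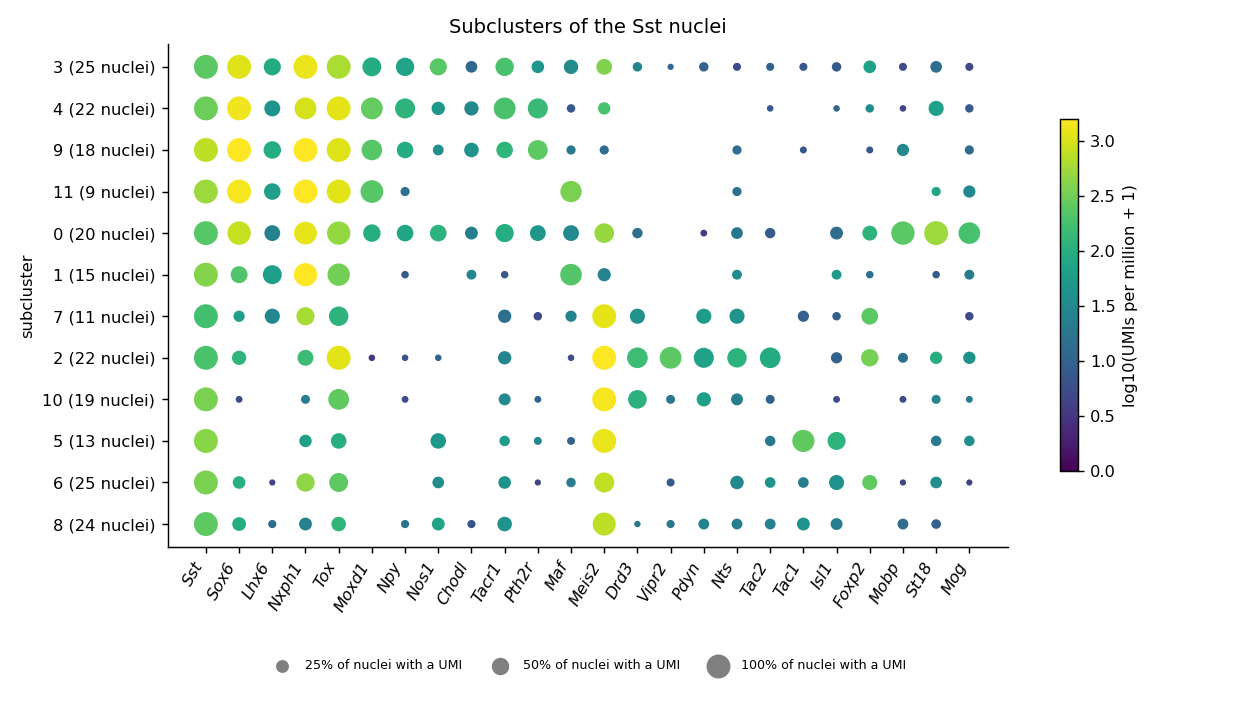
Subclusters of the 223 Sst nuclei (rows, with their number of nuclei) by gene (columns), with dot size for the percent of nuclei with a UMI and color for log10(UMIs per 1e+06 + 1). Rows are ordered by Sox6 against Meis2, and Moxd1 and Npy sit with Sox6 whereas Drd3, Vipr2, Pdyn and Tac1 sit with Meis2.

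Counts of nuclei with both of a pair of genes describe the same nuclei without clusters. Of the 223 Sst nuclei, 123 held a Sox6 UMI, 65 a Moxd1 UMI, 52 an Npy UMI, 47 a Nos1 UMI and 38 a Drd3 UMI. All 65 nuclei with Moxd1 also held Sox6, as did 49 of 52 with Npy and 52 of 58 with Lhx6. Npy and Nos1 were found together in 21 nuclei, and Npy and Moxd1 in 35. Only 3 nuclei held Drd3 and Moxd1 and 3 held Drd3 and Npy, whereas 16 of 25 nuclei with Vipr2 also held Drd3. Meis2 was found in 138 nuclei, 51 of them with Sox6. Sparse counts limit these values, since a gene with few molecules is missed in many nuclei, and the pairs were chosen after the values had been seen.

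Sst was also counted in GABA nuclei grouped by pairs of other genes. The count of 3 or more Sst UMIs is the rule that chose the Sst nuclei, and the pairs were picked with their levels in those nuclei known, so these shares are a description that supports nothing. Among GABA nuclei with no Slc17a6 or Slc17a7 UMI, 1.72%, 1.31%, 0.176% and 2.098% held 3 or more Sst UMIs in male 1, male 2, female 1 and female 2. Among nuclei with UMIs of both Npy and Sox6, of which there were 91, 75, 15 and 52, the shares were 18.7%, 20%, 6.67% and 26.9%. With Npy and Moxd1 they were 29.4%, 24.4%, 0% and 50%, though female 1 had only 5 such nuclei. In male 1, male 2 and female 2 these were the highest shares among the gene pairs examined.

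With Drd3 and Vipr2 the shares were 13.8%, 10.2%, 7.14% and 8.33%, and with Ebf1 and Drd3 they were 12.6%, 10%, 2.5% and 6.67%. With Moxd1 and Sox6 but without regard to Npy they were 6.93%, 6.44%, 0.943% and 11.2%, and with Nos1 and Sox6 2.41%, 2.54%, 1.11% and 7.89%. Nuclei with Foxp2 and Tshz1 gave 0.87%, 0.607%, 0% and 1.198%, and cholinergic nuclei with Chat and Slc5a7 gave 0%, 1.47%, 0% and 0%. In female 1 the share with Drd3 and Vipr2 was the highest, from 1 of 14 nuclei. These nuclei had a higher median depth than all GABA nuclei in most cases, for example 17927 against 12954 UMIs for Npy and Sox6 in male 1, and the part of depth in the shares was not tested. Most Npy and Sox6 nuclei still did not reach 3 Sst UMIs.

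**Figure D5:**
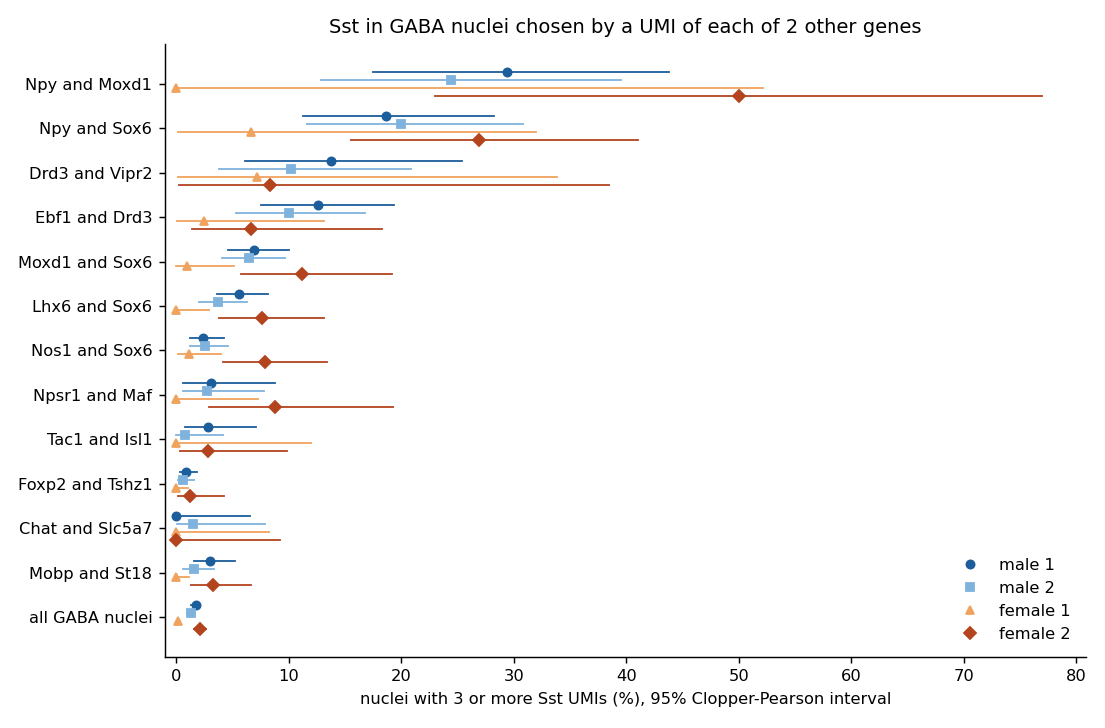
Percent of GABA nuclei with 3 or more Sst UMIs (95% Clopper-Pearson intervals, counting error only) among nuclei with a UMI of each of 2 other genes, by library. Nuclei with Npy and Moxd1 or Npy and Sox6 reach 18.7% to 50% in male 1, male 2 and female 2, against 1.31% to 2.10% of all GABA nuclei in those libraries.

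To assess sex differences within the Sst nuclei, the sums of 2 male and 2 female libraries were compared. Of 8877 genes tested, 401 (4.52%) differed at an adjusted p under 0.05 with edgeR's quasi-likelihood test, 134 (1.51%) higher in males and 267 (3.01%) higher in females. The sex-linked genes matched the labels. Xist stood at 0.734, 0, 968 and 1399 CPM in Sst nuclei of male 1, male 2, female 1 and female 2, and the Y-linked Uty at 178, 182, 0 and 0 and Eif2s3y at 119.7, 133, 0 and 0. Calls varied strongly with the libraries, with 1210 without female 1, 125 without female 2, 29 without male 1, 26 without male 2, 28 with DESeq2 (0.315%; 3, or 0.0338%, higher in males and 25, or 0.282%, in females) and 205 without subcluster 0. Sex cannot be told apart from barcode set, software, gene list and depth in any of these.

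Several genes called higher in females were high in female 2 only. The noncoding RNA Bc1 stood at 15.4, 26.5, 0 and 1937 CPM in Sst nuclei and at 18.8, 19.8, 0.791 and 1692 in other GABA nuclei, so female 2 stood apart in both classes (log2 fold, male over female, -5.94 ± 0.44). Without female 2 the fitted log2 fold, which then rests on 0 UMIs in female 1, was 7.03. Ptgds, a prostaglandin synthase of glia and meninges, stood at 41.1, 37.6, 17.9 and 368 CPM (log2 fold -2.95 ± 0.27), and without female 2 its log2 fold was 1.04. In other GABA nuclei it stood at 40.04, 43.9, 86.3 and 288 CPM, also highest in female 2. Of 10 mitochondrial genes tested, 7 were higher in females and 0 in males, among them mt-Nd2 at 20.6, 22.4, 233 and 241 CPM (log2 fold -3.46 ± 0.26, adjusted p = 7.88e-15). In other GABA nuclei mt-Nd2 stood at 11.1, 9.28, 76.5 and 282 CPM. Of 7 oligodendrocyte genes, 2, Mag among them, were higher in females, and of 5 astrocyte genes 2 were, Apoe at 55.1, 54.9, 53.8 and 234 CPM and Cst3 at 24.96, 43.7, 53.8 and 169. The glial transcripts moved with the female 2 library and mt-Nd2 was high in both females, and the part of either in the other calls was not tested. Gm47283, annotated on the Y chromosome at 90784738 to 90816464 (GRCm38), was counted higher in females, at 56.5, 59.01, 161 and 737 CPM, and its reads can be shared with near-identical copies, so it is uncertain.

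Among neuropeptide genes, 12 were tested between the sexes, 1 was higher in males and 2 in females. Pdyn was higher in males, at the 36.7, 18.3, 17.9 and 3.09 CPM given above for male 1, male 2, female 1 and female 2 (log2 fold 2.70 ± 0.78, adjusted p = 0.0335), although female 1 rests on 1 UMI and lies close to male 2. Npy was called higher in females at 24.96, 28.5, 17.9 and 94.4 CPM (log2 fold -1.67 ± 0.35, adjusted p = 0.00127), but female 1 lay below both males, so the groups overlapped. Tac2 was higher in both females, at 12.5, 20.3, 35.8 and 52.6 CPM (log2 fold -1.64 ± 0.45, adjusted p = 0.0216). Pcsk1n, an inhibitor of the convertase Pcsk1, stood at 48.5, 60.03, 125 and 289 CPM (log2 fold -2.28 ± 0.24, adjusted p = 2.83e-10). In other GABA nuclei it stood at 60.9, 58.4, 37.9 and 231 CPM, so it was highest in female 2 in both classes. Without female 2 its log2 fold was -1.33 and did not pass the test (adjusted p = 0.438), nor did it pass without male 1 (0.191) or male 2 (0.0528). The calls of Pdyn, Npy and Tac2 were lost as well without female 2, without male 1 or without male 2, and without female 2 the log2 fold of Pdyn was 0.57 and that of Npy turned to 0.46.

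Some genes known from Sst interneurons were called higher in males. Of 18 Sst interneuron genes tested, 4 were higher in males (Nxph1, Calb1, Unc13c and Pdyn) and 0 in females. Pdyn is also in the list of extended amygdala genes. It was in 68.2% of nuclei of the Meis2 subcluster 2, in 12% of the Sox6 subcluster 3 and in none of subclusters 4, 9 and 11. Unc13c was in 100% of nuclei of the Meis2 subcluster 10 and in 56.9% of all other Sst nuclei. The list name therefore does not place these 2 genes in the Sox6 nuclei. Nxph1 stood at 1186, 923, 573 and 548 CPM (log2 fold 0.93 ± 0.22, adjusted p = 0.00688), with both males above both females. Drd3 had a log2 fold of 1.53 ± 0.47 (adjusted p = 0.0441), Foxp2 one of 1.32 ± 0.34 and the serotonin receptor Htr7 one of 1.19 ± 0.34. Pax6, which led subcluster 8 of mostly female 2 nuclei, was higher in females at 0.734, 7.12, 35.8 and 23.2 CPM (log2 fold -2.75 ± 0.67). None of these 8 calls held without male 1, without male 2 or without female 2, where Pax6 was not fitted, and without male 1 the log2 fold of Foxp2 was 0.48. No sex steroid gene was called among 8 tested. The mix of subclusters differed between libraries, so a level difference over all Sst nuclei and a difference in that mix cannot be told apart.

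Whether the difference between Sst and other GABA nuclei itself depended on sex was tested as an interaction within library. Of 17053 genes tested, 16 (0.0938%) were called, 13 (0.0762%) with a larger Sst excess in males and 3 (0.0176%) with a larger one in females. At an unadjusted p under 0.05 there were 816. DESeq2 called 0, with 113 at an unadjusted p under 0.05. Of the 10 with the lowest adjusted p, 7 were mitochondrial, among them mt-Co3, which stood at 152, 198, 0 and 596 CPM in Sst nuclei and 75.1, 87.4, 1.21 and 722 in other GABA nuclei (interaction log2 fold 1.44 ± 0.20, adjusted p = 2.88e-08). The other 3 were Alk, Diaph2 and Ndst4. Alk, the receptor tyrosine kinase, stood at 461, 363, 287 and 190.3 CPM in Sst nuclei against 229.8, 228, 284 and 249.9, higher in Sst nuclei of both males and lower in female 2 (interaction log2 fold 1.22 ± 0.21, adjusted p = 1.28e-05). Ndst4, a heparan sulfate enzyme, stood at 327, 341, 215 and 179.5 against 143, 141, 162 and 150.4, higher in Sst nuclei in all 4 libraries and more so in males. Without female 2 the calls of mt-Co3, Alk and Ndst4 were lost (interaction log2 folds 9.19, which rests on 0 UMIs in Sst nuclei of female 1, 0.81 and 0.80). Without male 2 no gene was called and without male 1 only 1 was, and 46 were called without female 1.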

How the data were processed

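The authors deposited, for each library, a matrix of whole-number counts of UMIs per gene and barcode, with gene and barcode lists. The submitters' processing notes name Cell Ranger 6.0.1, Seurat 5 and the build mm10. The version in the file headers is Cell Ranger 9.0.1 in the male matrices and 7.0.0 (female 1) and 7.2.0 (female 2) in the others. The labels' protocols name reagents of versions 2 and 3 of a 3′ kit without saying which library used which. No filter on doublets is recorded in them.

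Counts over the 31899 genes listed in all 4 libraries were used, in barcodes with 500 to 8000 genes and under 5% mitochondrial counts. The members and all gene lists were chosen with earlier results of these data known, so a list's counts are a description. UMIs were summed per library and class. The classes were compared with edgeR 4.0.16 (R 4.3.3; TMM scaling, filterByExpr, quasi-likelihood test, two-sided, Benjamini-Hochberg adjustment over all genes tested at 0.05) with library as a block, the sexes without a block, and their interaction with library as a block. CPM is a sum divided by its TMM-scaled total and multiplied by 1e+06. Fold changes are on a log2 scale with standard errors (SE). The 8 gate genes were left out. Scrublet scores came from scanpy 1.11.5. Each fit was tested on simulated data with a fold of 4, and it recovered 200 of 200 changed genes among 15777 tested for the class comparison, 180 of 193 among 8738 for sex and 164 of 200 among 16655 for the interaction. False calls were 7, 6 and 3. The changed genes were drawn from highly expressed genes, every gene had the same spread, and the simulated libraries differed in depth only. The real libraries differed in other ways too, so these counts do not measure how reliable the fits are here.

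Genes were named by rule. Among called genes with the same direction in all 4 libraries, and not gate genes or Gm or Rik models, the 14 highest folds with at least 50 UMIs in Sst nuclei and the 10 lowest with a mean of at least 20 CPM in other GABA nuclei were taken. From each list up to 4 called and 2 other genes were taken, and from the sex and interaction tests the 10 lowest adjusted p-values. A few genes that this rule takes are not reported here. Other genes named, the gene pairs and the promoters were chosen after the values had been seen. Subclusters came from Leiden clustering (1000 variable genes, 15 components, 15 neighbors, resolution 1) of the Sst nuclei. The oligodendrocyte gate required at least 2 oligodendrocyte UMIs, at most 1 neuronal UMI and no Gad1 or Gad2. Alternatives were DESeq2, other scaling and filters, other Sst thresholds, matched comparison nuclei, doublet removal, a depth range, each sex alone and leaving out each library.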

Additional observations from a re-analysis of the deposited data

Results flagged for a closer look

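For 10 genes the difference between Sst nuclei and other GABA nuclei differed between the sexes by an interaction test within library. The interaction log2 folds, male over female, were 1.44 for mt-Co3, 1.56 for mt-Nd1, 1.42 for mt-Cytb, 1.45 for mt-Co1, 1.43 for mt-Co2, 1.37 for mt-Atp6, 1.22 for Alk, 1.13 for mt-Nd4, 1.02 for Diaph2 and 1.01 for Ndst4. Of these, 7 are encoded by the mitochondrial genome. In other GABA nuclei, mt-Co3 was nearly absent from female 1 and highest in female 2, and without female 2 the folds of mt-Nd1, mt-Co1 and mt-Nd4 changed sign (-1.05, -1.05 and -0.83). DESeq2 called none of the 10. Diaph2, an X-linked formin gene, stood at 504, 592, 161 and 206 CPM in Sst nuclei and 305, 299, 299 and 203 in other GABA nuclei, higher in Sst nuclei of both males and lower in those of female 1. Without female 2 its interaction log2 fold was 1.71. The only female library in that fit is female 1, with 9 Diaph2 UMIs in its Sst nuclei. The median log2 fold of all genes in that fit was 5.92, so a fold there cannot show that the difference holds. The call of Diaph2 was lost without male 1 (log2 fold 1.25) and without male 2 (1.03).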

How the results depend on the processing

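The class comparison gave 521 calls, 134 with DESeq2, 159 with at least 5 Sst UMIs, 177 in the middle of the depth range, 12 without the library block, 29 in females alone and 197 to 498 with 1 library left out. It gave 774 (197 higher) without a filter. Of the 82 called genes named by the rule, 55 kept their call with DESeq2, 43 with at least 5 Sst UMIs and 16 in females alone. The sex comparison gave 401 calls, 28 with DESeq2, 23 with at least 5 Sst UMIs, 205 without subcluster 0 (chosen after seeing the data) and 26 to 1210 with 1 library left out. Male and female libraries share only replicate numbers; their deviations correlated by 0.028 over 7517 genes, and the replicate block gave 60 calls. The interaction gave 16 calls, 0 with DESeq2, 0 in the middle of the depth range, 30 and 8 with at least 2 and 5 Sst UMIs and 0 to 46 with 1 library left out. The share difference was -0.0592 points after thinning and 0.0238 to 0.716 with 1 library left out.

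Signs turned as follows. With at least 5 Sst UMIs, Vipr2 was at -0.19 and Slc18a2 at -1.74 (log2). In females alone, Pdyn was at -0.43, Fosb at -0.15, mt-Co1 at -0.055 and mt-Co3 at -0.30, and with 1 library left out Fosb ranged from -1.13 (without male 2) to 2.80. Without subcluster 0, Mbp was at -0.99 and Sox10 at -1.18. Between the sexes, with 1 library left out, Bc1 ranged from -6.50 to 7.03 and Ptgds from -3.14 to 1.04, and in the interaction mt-Nd1 from -1.05 to 1.98, mt-Co1 from -1.05 to 1.58 and mt-Nd4 from -0.83 to 1.35, each with the turned sign without female 2. The cause of these changes was not tested. The 7 nuclei of female 1 limit what that library can show.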

Other observations

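Of 282 nuclei with at least 3 Sst UMIs, 59 did not meet another gate. Slc17a6 or Slc17a7 UMIs were held by 16 of 75 such nuclei in male 2, by 3 of 85 in male 1, by 0 of 8 in female 1 and by 9 of 114 in female 2. Gad1 and Gad2 were both at 0 in 25 of the 114 in female 2, and in 4, 2 and 1 of those in male 1, male 2 and female 1.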
